A study of Gallus gallus with 24 samples.

Results

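Synaptic receptor subunits and synaptotagmins were followed in cultured chick RPE, the retinal pigment epithelium that backs the neural retina. The genes were taken by symbol from the deposited table: all rows named as a synaptotagmin (SYT) or as a subunit of the AMPA (GRIA), kainate (GRIK) and NMDA (GRIN) glutamate receptors, the GABA-A (GABR) and glycine (GLR) receptors and the nicotinic acetylcholine receptors (CHRN). Of 24356 gene rows, 13605 carried any symbol, so family members among the other rows would be missed. The symbols sought were held by 64 rows, 14 of them synaptotagmins and 50 receptor subunits, and none of the 64 was at 0 in all libraries. Polyadenylated RNA came from RPE explants of chick embryos (pathogen-free stock) at embryonic day 4, with 3 explants pooled into each biological replicate and 3 replicates in each of 8 groups. Explants were kept for 24 or 48 h in maintenance medium alone (control), with 10 ng/ml fibroblast growth factor 2 (FGF2), with 20 mM dichloroacetate (DCA), or with FGF2 and DCA together at the same doses. FGF2 can turn embryonic chick RPE towards neural retina, and DCA inhibits the kinases that hold back pyruvate dehydrogenase. The design asks how these genes respond to FGF2, to DCA, and to DCA given with FGF2.

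At a fast chemical synapse, calcium entering the nerve ending binds synaptotagmins on the vesicle membrane, the vesicles fuse, and the released glutamate, GABA, glycine or acetylcholine opens ion channels on the receiving cell. Those channels are assembled from several subunits, so the subunits a cell expresses set which transmitter it answers to and how its channels behave. In the developing retina receptor genes are switched on before synapses form, and many of these genes are also used outside neurons, synaptotagmins in membrane traffic of secretory and lysosomal vesicles among them.

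Levels are normalized read counts, that is, reads per gene divided by 1 size factor per library, and values of single libraries are listed in the order of replicates 1, 2 and 3. A fold change is the difference of group means on the log2 scale of the normalized count plus 1, with the standard error (SE) from limma. For low genes it can understate the change, or overstate it where a group mixes libraries at 0 with libraries that hold reads. A gene was called when limma's p, adjusted by Benjamini-Hochberg over 15001 genes whose mean reached 10, was under 0.05. The recovered depth ran from 32818162 to 72724381 reads per library. The deepest libraries were replicate 3 of FGF2 at 24 h and at 48 h, and no other exceeded 47066340. The pigment genes that mark RPE summed to 161300 to 191300 normalized counts per library in the 24 h controls and to 192200 to 212300 in the 48 h controls, and none of the 13 was at 0. With DCA alone the sum was 124100 to 144200 at 24 h and 68930 to 135500 at 48 h, below all controls of the same time. At 24 h the sum was 155500 to 213500 with FGF2, overlapping the controls, and 105600 to 158500 with DCA and FGF2. Single pigment genes did differ from control with FGF2 at 24 h. MLANA, OTX2, TTR and TYR were called lower and MITF and RLBP1 higher, beside 14.3% lower and 15.5% higher of all genes tested. With DCA alone at 24 h only PMEL and TYR of the 13 were called, both lower, beside 9.48% lower of all genes tested. At 48 h the sum was 47510 to 71300 with FGF2 and 35200 to 38480 with DCA and FGF2. In such bulk samples fewer cells of a type and less RNA per cell cannot be told apart, and reads of paralogous or overlapping genes may be shared.

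Of the 64 genes, 56 reached a mean of 10 and were tested, 43 receptor subunits and 13 synaptotagmins. With FGF2, 30 of the 56 were called at 24 h, 13 higher and 17 lower, beside 29.8% of all genes tested (15.5% higher, 14.3% lower). At 48 h 25 were called, 9 higher and 16 lower, beside 54.6% of all genes tested (26.9% higher, 27.7% lower). The median log2 fold change over the members was -0.11 at 24 h and -0.33 at 48 h, against -0.01 and -0.02 over all genes tested. DCA alone called 13 members at 24 h, 8 higher and 5 lower, beside 20.1% of all genes tested (10.6% higher, 9.48% lower), and 16 at 48 h, 6 higher and 10 lower, beside 34.1% of all genes tested (16.9% higher, 17.1% lower). Adding DCA to FGF2 called 32 at 24 h, 19 higher and 13 lower, beside 35.8% of all genes tested (18.1% higher, 17.8% lower), and 24 at 48 h, 15 higher and 9 lower, beside 52.8% of all genes tested (25.4% higher, 27.4% lower). As a share of the 56 these counts ran from 23.2% to 57.1%, above the background at 24 h, where DCA alone was near it, and below it at 48 h.

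In controls, 19 members were called between 24 and 48 h, 18 higher and 1 lower at 48 h, beside 17% of all genes tested (9.69% higher, 7.3% lower). The interaction, which sets the DCA response in the presence of FGF2 against the response in its absence, was called for 6 members at 24 h, 3 higher and 3 lower, beside 2.92% of all genes tested (1.68% higher, 1.24% lower). At 48 h it was called for 15, 12 higher and 3 lower, beside 30.1% of all genes tested (15.1% higher, 15% lower). The FGF2 effect at 48 h minus that at 24 h was called for 12, 3 higher and 9 lower, beside 30.2% of all genes tested (14.7% higher, 15.4% lower). The comparisons share control or FGF2 libraries, so their counts are not independent.

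**Figure D1:**
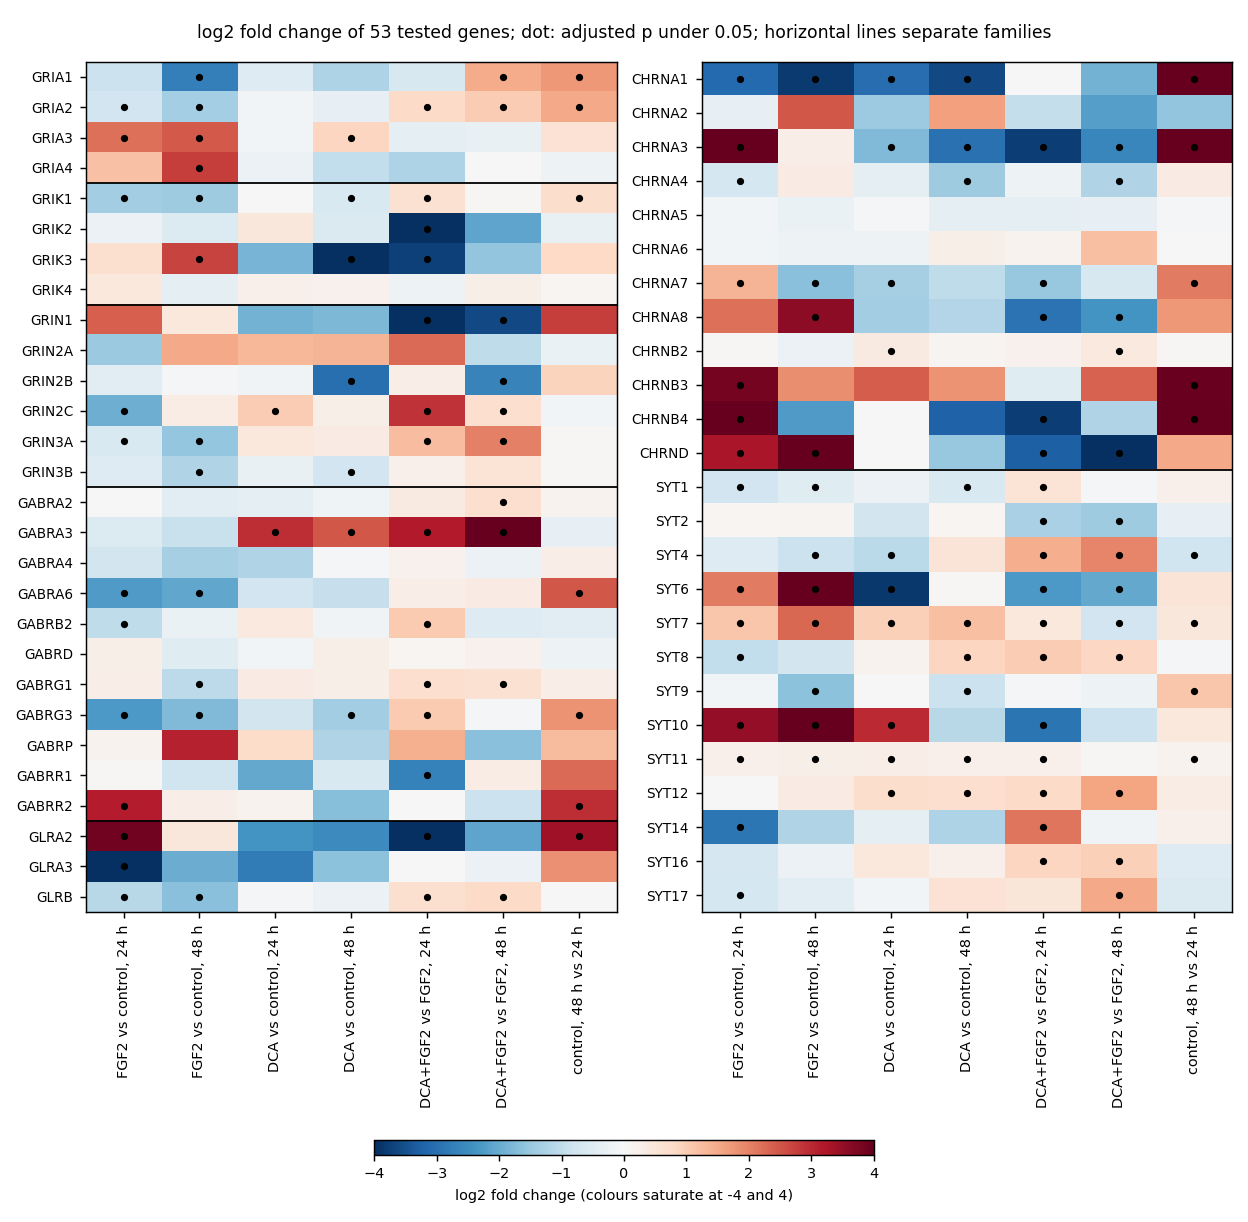
Colours show the log2 fold change of each of 53 tested genes (rows, by family) in 7 comparisons (columns), red for higher and blue for lower in the group named before "vs", with colours saturating at -4 and 4, and a dot where limma's adjusted p was under 0.05. The FGF2 columns hold red and blue cells, and the GABRA3 row is red in all 4 DCA columns.

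Among AMPA receptor genes, whose subunits carry most fast excitation, FGF2 was followed by opposite changes. GRIA3 (ENSGALG00000034109) was at 23.5, 43.5 and 34.6 in the 24 h controls and 145, 147 and 174 with FGF2. Its 48 h values were 56.6, 43.5 and 48.1 against 219, 344 and 276. The groups did not overlap at either time, and the gene rose (log2 fold change 2.20 ± 0.28, adjusted p = 3.6e-06 at 24 h, log2 fold change 2.46 ± 0.28, adjusted p = 2.1e-07 at 48 h). Lack of overlap was a condition for naming genes by their FGF2 call, so here and below it adds no support. With FGF2, 34 of the 56 members did not overlap at 24 h and 37 at 48 h, beside 44.8% and 64.9% of all genes tested. GRIA4 was low and uneven in controls, at 6.06, 50.1 and 5.12 at 48 h, and stood at 82.2, 107 and 73.1 with FGF2 (log2 fold change 2.75 ± 0.93, adjusted p = 0.016). GRIA1 (ENSGALG00000004083) and GRIA2 (ENSGALG00000009405), whose edited product keeps AMPA receptors closed to calcium, went the other way. GRIA1 was at 275, 276 and 252 in the 48 h controls and 26.3, 40.1 and 55 with FGF2 (log2 fold change -2.75 ± 0.48, adjusted p = 4.3e-05). GRIA2 was at 1029, 941 and 863 and 339.6, 428 and 343 (log2 fold change -1.35 ± 0.26, adjusted p = 0.00017), again without overlap. In controls GRIA2 had itself risen from 189, 423 and 457 at 24 h (log2 fold change 1.50 ± 0.26, adjusted p = 0.00045). GRIA4 lost its call for FGF2 at 48 h without control 48 h replicate 1 or control 48 h replicate 3. For GRIA4 the adjusted p ran from 0.0021 to 0.081 over the alternatives.

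At 48 h GRIA1 and GRIA2 were higher with DCA and FGF2 than with FGF2 alone. GRIA2 stood at 845, 682 and 705 with DCA and FGF2 (log2 fold change 1.01 ± 0.26, adjusted p = 0.003 against FGF2) and at 1031, 628 and 648 with DCA alone, a log2 fold change of -0.33 ± 0.26 against control (adjusted p = 0.36). The interaction was 1.34 ± 0.37 for GRIA2 (adjusted p = 0.0095) and 2.71 ± 0.67 for GRIA1 (adjusted p = 0.0042). GRIA1 was at 201, 97.1 and 66.9 with both agents (log2 fold change 1.47 ± 0.48, adjusted p = 0.013 against FGF2) and at 156, 96.8 and 96.2 with DCA alone. These comparisons share their FGF2 libraries with the FGF2 effect itself, so a high or low FGF2 group enters each of them. GRIA3 stayed high with both agents, at 207, 296 and 182, -0.30 ± 0.28 against FGF2 alone (adjusted p = 0.4). With DCA alone GRIA3 was at 113, 73.2 and 89.2 at 48 h (log2 fold change 0.87 ± 0.28, adjusted p = 0.023). GRIA1 lost its call for DCA added to FGF2 at 48 h without FGF2 48 h replicate 1 or DCA+FGF2 48 h replicate 1. For GRIA1 the adjusted p ran from 0.0019 to 0.097 over the alternatives. GRIA3 lost its call for DCA at 48 h without control 48 h replicate 2, control 48 h replicate 3 or DCA 48 h replicate 1, and under a fit of only the groups compared. For GRIA3 the adjusted p ran from 0.01 to 0.11 over the alternatives.

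The kainate receptor gene GRIK1 (ENSGALG00000015835) was lowered by FGF2 at each time. Its values were 3782, 5987 and 5382 in the 24 h controls against 1462, 2349.6 and 1940.4 with FGF2 (log2 fold change -1.40 ± 0.17, adjusted p = 1.7e-06), every FGF2 library being lower. At 48 h they were 7724, 7897 and 8625 against 2882, 3579 and 2630.4 (log2 fold change -1.43 ± 0.17, adjusted p = 3.2e-07), with no overlap. GRIK3 (ENSGALG00000002098), a kainate subunit of low glutamate affinity, rose instead, from 61.7, 117 and 61.4 to 588, 419 and 506 at 48 h (log2 fold change 2.70 ± 0.80, adjusted p = 0.0067). With DCA alone GRIK3 was at 0, 0 and 8.02 at 48 h (log2 fold change -5.21 ± 0.80, adjusted p = 3.9e-05), 2 of the 3 libraries holding no read. With DCA and FGF2 it was at 0, 7.54 and 15 at 24 h against 77.9, 66 and 61.8 with FGF2 (log2 fold change -3.75 ± 0.80, adjusted p = 0.00096). At 48 h it was at 154, 185 and 161 with both agents, below every FGF2 library, but the difference did not pass (-1.58 ± 0.80, adjusted p = 0.1). GRIK2 was at 72.6, 48.3 and 69.4 with FGF2 at 24 h and 0, 0 and 6.42 with both agents (log2 fold change -5.02 ± 0.92, adjusted p = 0.00023). The GRIK2 interaction was -5.48 ± 1.30 (adjusted p = 0.024). GRIK4, which encodes an auxiliary kainate subunit of high affinity, had group means of 323 to 531 and passed in none of the 6 comparisons with control or FGF2. GRIK2 lost its call for the interaction at 24 h without control 24 h replicate 1, DCA 24 h replicate 3, FGF2 24 h replicate 1, DCA+FGF2 24 h replicate 1 or DCA+FGF2 24 h replicate 2. For GRIK2 the adjusted p ran from 0.00014 to 0.071 over the alternatives.

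NMDA receptors need the GRIN1 subunit, and GRIN1 was barely detected: its highest value in any library was 36.3 normalized counts. It was at 25.6, 18.8 and 12.2 with FGF2 at 24 h and at 0, 0 and 0 with DCA and FGF2, at least 5.55-fold lower if 3 reads per library are taken as the limit of detection (adjusted p = 0.0068). GRIN2B, a subunit of early brain development, was also low, at most 63.2 in any library, with 39.4, 63.2 and 24.6 in the 48 h controls and 14.6, 6.75 and 0 with DCA (log2 fold change -3.03 ± 0.89, adjusted p = 0.011). GRIN3A (ENSGALG00000015551), a glycine-binding subunit that lowers calcium flux in NMDA receptors, was at 2690.5, 1847 and 2026 in the 48 h controls and 699, 805 and 717 with FGF2 (log2 fold change -1.55 ± 0.16, adjusted p = 4.1e-08). With DCA and FGF2 it was at 3499, 2545 and 3042 (log2 fold change 2.02 ± 0.16, adjusted p = 1.1e-09 against FGF2), within or above the range of the controls, and DCA alone gave 3243, 2448 and 2472. The interaction for GRIN3A was 1.70 ± 0.23 (adjusted p = 9.9e-06), and the FGF2 effect changed from 24 to 48 h by -0.93 ± 0.23 (adjusted p = 0.0034). GRIN3B, its paralog, was at 211, 249.6 and 219 and 150.1, 87.9 and 69.8 at 48 h (log2 fold change -1.21 ± 0.24, adjusted p = 0.00025), with an interaction of 1.33 ± 0.35 (adjusted p = 0.0058). GRIN2B lost its call for DCA at 48 h without control 48 h replicate 2 or DCA 48 h replicate 3, and under a fit of only the groups compared. For GRIN2B the adjusted p ran from 0.0016 to 0.091 over the alternatives.

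GRIN2C (ENSGALG00000027415), known in mammals from cerebellar granule cells, changed early. At 24 h it was at 288, 490.4 and 368 in controls, 88.6, 106 and 95 with FGF2 and 955, 584 and 793 with DCA, and the 3 groups did not overlap. FGF2 lowered it (log2 fold change -1.94 ± 0.27, adjusted p = 8.6e-06) and DCA alone raised it (log2 fold change 1.03 ± 0.27, adjusted p = 0.0096). With both agents it was at 484, 1222 and 624 (log2 fold change 2.88 ± 0.27, adjusted p = 1.1e-07 against FGF2), so that 2 of the 3 libraries lay above all controls. The interaction was 1.86 ± 0.38 (adjusted p = 0.0092). At 48 h the libraries were at 372, 311 and 356 in controls and 412, 510.3 and 373 with FGF2 (0.31 ± 0.27, adjusted p = 0.35), and the change of the FGF2 effect between times was 2.25 ± 0.38 (adjusted p = 0.00013). GRIN2C lost its call for DCA at 24 h without control 24 h replicate 1 or DCA 24 h replicate 1. For GRIN2C the adjusted p ran from 0.002 to 0.059 over the alternatives.

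**Figure D2:**
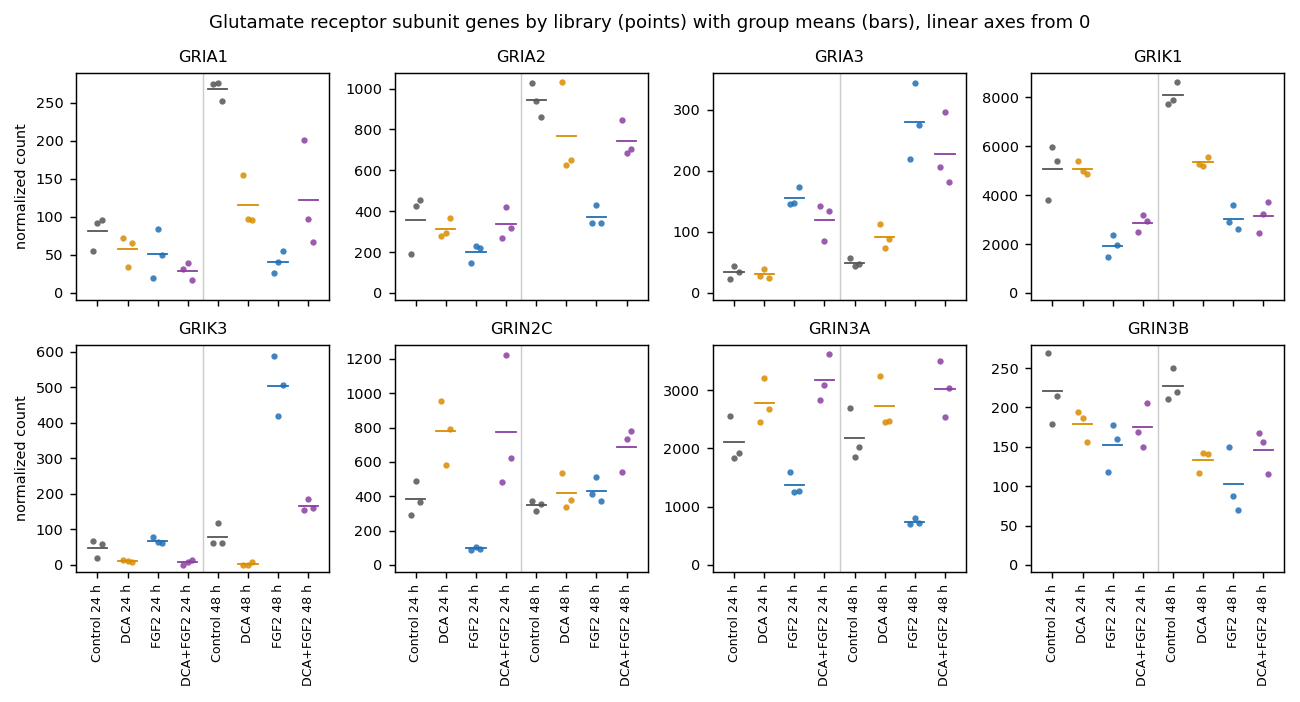
Each point is 1 library and each bar the mean of 3, on linear axes of normalized counts for 8 glutamate receptor genes, with the 24 h groups left of the grey line and the 48 h groups right of it. GRIA3 and GRIK3 are highest with FGF2 at 48 h, while GRIA2, GRIK1 and GRIN3A are lower there than in the 48 h controls.

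GABA-A receptors are chloride channels built from alpha, beta and gamma subunits. GABRA6 (ENSGALG00000001695), an alpha subunit best known from cerebellar granule cells, fell from 68.3, 175 and 237 to 13.9, 45.9 and 35 at 24 h (log2 fold change -2.28 ± 0.43, adjusted p = 0.00027) and from 909.6, 779 and 705 to 169, 191 and 208 at 48 h (log2 fold change -2.07 ± 0.43, adjusted p = 0.00031). The gamma subunit gene GABRG3 followed the same course, at 238, 249.6 and 211 and 60.3, 82.2 and 59.9 at 48 h (log2 fold change -1.78 ± 0.38, adjusted p = 0.0004). GABRA6 and GABRG3 had both risen in controls between 24 and 48 h, by 2.48 ± 0.43 and 1.79 ± 0.38 on the log2 scale (adjusted p = 0.00036 and 0.0023). GABRB2, a beta subunit gene, fell at 24 h from 260.4, 335 and 296 to 163, 104 and 180.2 (log2 fold change -1.02 ± 0.23, adjusted p = 0.0014), and at 48 h its groups overlapped (-0.26 ± 0.23, adjusted p = 0.36).

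GABRG1 (ENSGALG00000020143), a further gamma subunit gene, was at 931, 818 and 939.8 in the 48 h controls and fell to 488, 406 and 394 with FGF2 (log2 fold change -1.06 ± 0.13, adjusted p = 3.3e-07), while at 24 h it had not passed (0.27 ± 0.13, adjusted p = 0.12; difference between times -1.33 ± 0.18, adjusted p = 1.1e-05). GABRA2, the alpha gene next to it in the genome, was at 125, 125 and 158 with FGF2 and 171, 162 and 215 in controls at 48 h (-0.42 ± 0.27, adjusted p = 0.19).

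DCA raised GABRA3 (ENSGALG00000007269), an alpha subunit of embryonic and neonatal brain in mammals, with and without FGF2. At 24 h it was at 8.54, 56 and 57.6 in controls and 251, 201 and 284 with DCA (log2 fold change 2.94 ± 0.66, adjusted p = 0.0032). At 48 h it was at 29.3, 18.9 and 25.6 and 568, 81 and 59.1 (log2 fold change 2.48 ± 0.66, adjusted p = 0.0062), where replicate 1 of the DCA group lay far above the other two. With FGF2 alone it was at 26.7, 13 and 25.7 at 24 h and 11, 8.6 and 20.9 at 48 h. With both agents it was at 149.5, 259 and 188 and 776, 555 and 587 (log2 fold change 3.16 ± 0.66, adjusted p = 0.00083 and log2 fold change 5.54 ± 0.66, adjusted p = 4.3e-07 against FGF2). Every DCA-treated library of either time was thus above every library without DCA, though across times the margin was narrow. The lowest with DCA was at 59.1 (DCA alone, 48 h) and the highest without it at 57.6 (control, 24 h). GABRA6 and GABRG3 did not pass when DCA was added to FGF2 for 48 h, at 175, 218 and 361 and 48.6, 74.9 and 71.2 with both agents (0.34 ± 0.43 and -0.06 ± 0.38, adjusted p = 0.53 and 0.9). GABRA3 lost its call for DCA at 48 h without DCA 48 h replicate 1, and under a fit of only the groups compared. For GABRA3 the adjusted p ran from 3e-05 to 0.061 over the alternatives.

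**Figure D3:**
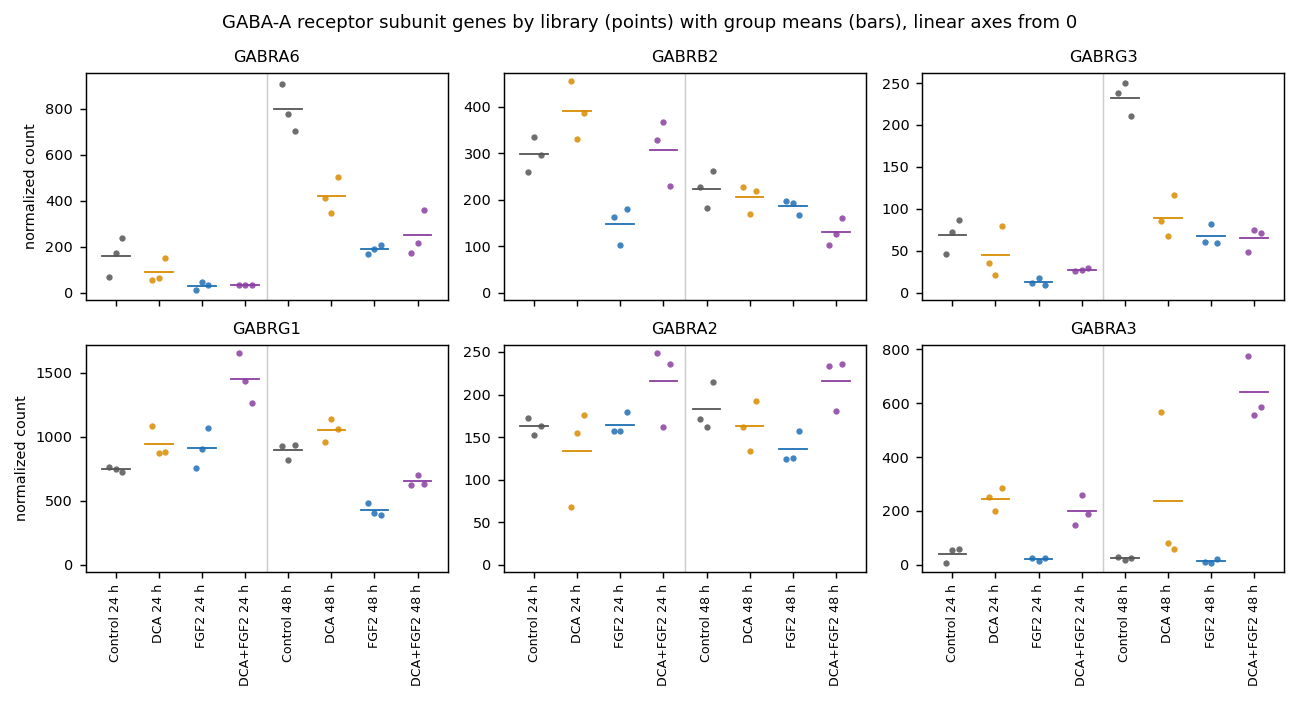
Points are libraries and bars are means of 3, in normalized counts on linear axes, for 6 GABA-A receptor genes in the 8 groups. GABRA3 is higher in the 4 groups that received DCA, but with DCA alone at 48 h a single library lies far above the others of its group. GABRA6, GABRG1 and GABRG3 are lower with FGF2 than in controls at 48 h.

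The rho subunits GABRR1 and GABRR2, which form GABA receptors of retinal bipolar cells, were low throughout, at most 110.2 normalized counts in a library. GABRR1 was at 110.2, 49.3 and 67.6 in the 48 h controls and 66.8, 32.5 and 31.9 with FGF2 (-0.79 ± 0.86, adjusted p = 0.46). GABRR2 was at 0, 16.6 and 11.5 in the 24 h controls and 64, 45.9 and 49 with FGF2 (log2 fold change 3.15 ± 0.95, adjusted p = 0.015). GLRB (ENSGALG00000009395) encodes the beta subunit that ties glycine receptors to the scaffold protein gephyrin. It fell with FGF2 from 199, 258 and 290.2 to 129, 91.9 and 127 at 24 h (log2 fold change -1.10 ± 0.25, adjusted p = 0.0017) and from 263, 235 and 225 to 81.1, 73.6 and 72 at 48 h (log2 fold change -1.66 ± 0.25, adjusted p = 7e-06). The glycine receptor alpha genes moved apart at 24 h. GLRA3 was at 25.6, 65.3 and 59.7 in the 24 h controls and 0, 0 and 11.7 with FGF2 (log2 fold change -4.35 ± 1.07, adjusted p = 0.0035). In contrast GLRA2, the alpha subunit of embryonic receptors, was at 14.9, 8.29 and 0 and 88.6, 68.3 and 70 (log2 fold change 3.85 ± 1.08, adjusted p = 0.0095). With DCA and FGF2 at 24 h GLRA2 was at 0, 0 and 7.49 (log2 fold change -5.22 ± 1.08, adjusted p = 0.00077). GLRA1, the alpha subunit of adult spinal receptors, was above 0 in 7 of 24 libraries and was not tested. GABRR2 lost its call for FGF2 at 24 h without control 24 h replicate 1 or FGF2 24 h replicate 1, and under a fit of only the groups compared. For GABRR2 the adjusted p ran from 0.003 to 0.13 over the alternatives. GLRA2 lost its call for FGF2 at 24 h without control 24 h replicate 3. For GLRA2 the adjusted p ran from 0.00019 to 0.08 over the alternatives.

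Nicotinic receptors are cation channels opened by acetylcholine, and several of their genes rose with FGF2. CHRNA3 (ENSGALG00000003014) and CHRNB4, which together form the receptor of autonomic ganglia, were nearly silent in the 24 h controls at 4.27, 10.4 and 3.14 and 0, 0 and 0. With FGF2 they were at 269, 284 and 260 and 79, 63.6 and 91. CHRNA3 rose (log2 fold change 5.43 ± 0.58, adjusted p = 2.9e-07), and CHRNB4 was at least 24.7-fold higher with a floor of 3 reads per library (adjusted p = 0.0005). At 48 h the controls had risen too. CHRNA3 was at 141, 237 and 137 in controls (log2 fold change 4.74 ± 0.58, adjusted p = 9.6e-06 against 24 h) and 171, 293 and 164 with FGF2, and the groups overlapped (0.28 ± 0.58, adjusted p = 0.71). The FGF2 effect differed between times by -5.16 ± 0.82 (adjusted p = 6.7e-05). CHRNB4 was at 60.6, 33.7 and 26.6 and 31.8, 0 and 14.8 (-2.28 ± 1.25, adjusted p = 0.13; difference between times -8.56 ± 1.77, adjusted p = 0.00091, a fitted value that rests on a group at 0).

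CHRNA3 was low in every group that received DCA. It was at 17.6, 10.8 and 35.3 with DCA and FGF2 at 24 h (log2 fold change -3.77 ± 0.58, adjusted p = 3.5e-05 against FGF2) and 25.8, 45.6 and 29.1 at 48 h (log2 fold change -2.60 ± 0.58, adjusted p = 0.0007). DCA alone gave 24.6, 18 and 18 at 48 h (log2 fold change -2.99 ± 0.58, adjusted p = 0.00043 against control). No DCA library exceeded 45.6 normalized counts, and no library of FGF2 alone or of the 48 h controls was below 137. CHRNA5 (ENSGALG00000003021), the accessory subunit of the same receptor, had group means of 300 to 488 and passed in none of these comparisons. Of 5 autonomic neuron markers, TH was at 0 in all libraries of FGF2 at 24 h, and the summed level of the list was 692 to 971 there against 401 to 628 in the 24 h controls and 1337 to 1512 with DCA at 24 h, most of it from the intermediate filament gene PRPH. Their part in the CHRNA3 values was not tested.

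CHRNA4 (ENSGALG00000005801) and CHRNB2, the subunits of the main brain nicotinic receptor, had log2 fold changes of -0.69 ± 0.24 and 0.06 ± 0.11 with FGF2 at 24 h (adjusted p = 0.03 and 0.73). CHRNB2 was at 567, 543 and 643 in the 48 h controls and 522, 484 and 463 with FGF2 (-0.25 ± 0.11, adjusted p = 0.057). CHRNA4 was lower with DCA at 48 h, 325, 611 and 633 against 1411, 1128 and 1478 in controls (log2 fold change -1.41 ± 0.24, adjusted p = 0.00011). It was at 495, 851 and 899 with both agents against 1609, 1726 and 1659 with FGF2 (log2 fold change -1.20 ± 0.24, adjusted p = 0.00021). CHRNA7 and CHRNA8 encode subunits that can form channels by themselves, alpha8 being known from chick retina. CHRNA8 rose with FGF2 at 48 h from 73.8, 53.4 and 29.7 to 583, 462 and 795 (log2 fold change 3.58 ± 1.00, adjusted p = 0.0044). With both agents it was at 65.1, 160.3 and 136 (log2 fold change -2.40 ± 1.00, adjusted p = 0.049 against FGF2). CHRNA7 (ENSGALG00000004096) turned round between the times. It was at 145, 219.8 and 356 and 553, 598 and 569 at 24 h (log2 fold change 1.35 ± 0.45, adjusted p = 0.028). The 48 h values were 995, 1056 and 830.3 and 514, 176 and 294 (log2 fold change -1.68 ± 0.45, adjusted p = 0.0035), and controls had risen between the times (log2 fold change 2.08 ± 0.45, adjusted p = 0.0029). The FGF2 effect on CHRNA7 differed between times by -3.02 ± 0.64 (adjusted p = 0.0012). CHRNA4 lost its call for FGF2 at 24 h without control 24 h replicate 2, control 24 h replicate 3, FGF2 24 h replicate 2 or FGF2 24 h replicate 3. For CHRNA4 the adjusted p ran from 0.0096 to 0.13 over the alternatives. CHRNA8 lost its call for DCA added to FGF2 at 48 h without any 1 of 18 of the 24 libraries, and under a pseudocount of 0.5, no filter or the replicate block. For CHRNA8 the adjusted p ran from 0.00029 to 0.15 over the alternatives. CHRNA7 lost its call for FGF2 at 24 h without control 24 h replicate 1, control 24 h replicate 2, FGF2 24 h replicate 1, FGF2 24 h replicate 2 or FGF2 24 h replicate 3. For CHRNA7 the adjusted p ran from 0.0094 to 0.13 over the alternatives.

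Subunits of the muscle receptor were also present. CHRNA1 (ENSGALG00000009301), its ligand-binding alpha subunit, was at 9.6, 19.7 and 17.8 in the 24 h controls and 205, 451 and 236 in the 48 h controls (log2 fold change 4.13 ± 1.03, adjusted p = 0.0078). At 48 h it was at 19.7, 23.9 and 14.3 with FGF2 (log2 fold change -3.82 ± 1.03, adjusted p = 0.0034) and 20.2, 13.5 and 38.1 with DCA (log2 fold change -3.62 ± 1.03, adjusted p = 0.0096). Every 48 h control library lay above every other library for CHRNA1. The muscle regulator MYOG was at 187, 506 and 157 in the 48 h controls, 28.5, 14.3 and 36.3 with FGF2 and 58.2, 19.1 and 21 with DCA, against 0, 0 and 3.14 in the 24 h controls. Of 10 skeletal muscle markers, 9 fell and 0 rose with FGF2 at 48 h, beside 27.7% lower and 26.9% higher of all genes tested. Their summed level at 48 h was 4832 to 9466 in controls, 3757 to 8082 with DCA and 1021 to 1121 with FGF2. None was at 0 in all libraries of a group. With DCA at 48 h 4 of the 10 fell and 2 rose, beside 17.1% lower and 16.9% higher of all genes tested. The risers were ACTA1 (1.50 ± 0.26, adjusted p = 0.00014) and DES (1.10 ± 0.28, adjusted p = 0.0042). The part of the muscle markers in the CHRNA1 values was not tested. CHRND, the muscle delta subunit, was at 0, 22.2 and 0 in the 48 h controls and 77.8, 144 and 124 with FGF2 (log2 fold change 5.31 ± 1.18, adjusted p = 0.00062). It was at 0, 3.51 and 14 with both agents (log2 fold change -4.79 ± 1.18, adjusted p = 0.0017). CHRND lost its call for FGF2 at 48 h under DESeq2. For CHRND the adjusted p ran from 2.5e-06 to 0.21 over the alternatives. CHRND lost its call for DCA added to FGF2 at 48 h under DESeq2. For CHRND the adjusted p ran from 3.3e-06 to 0.18 over the alternatives.

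**Figure D4:**
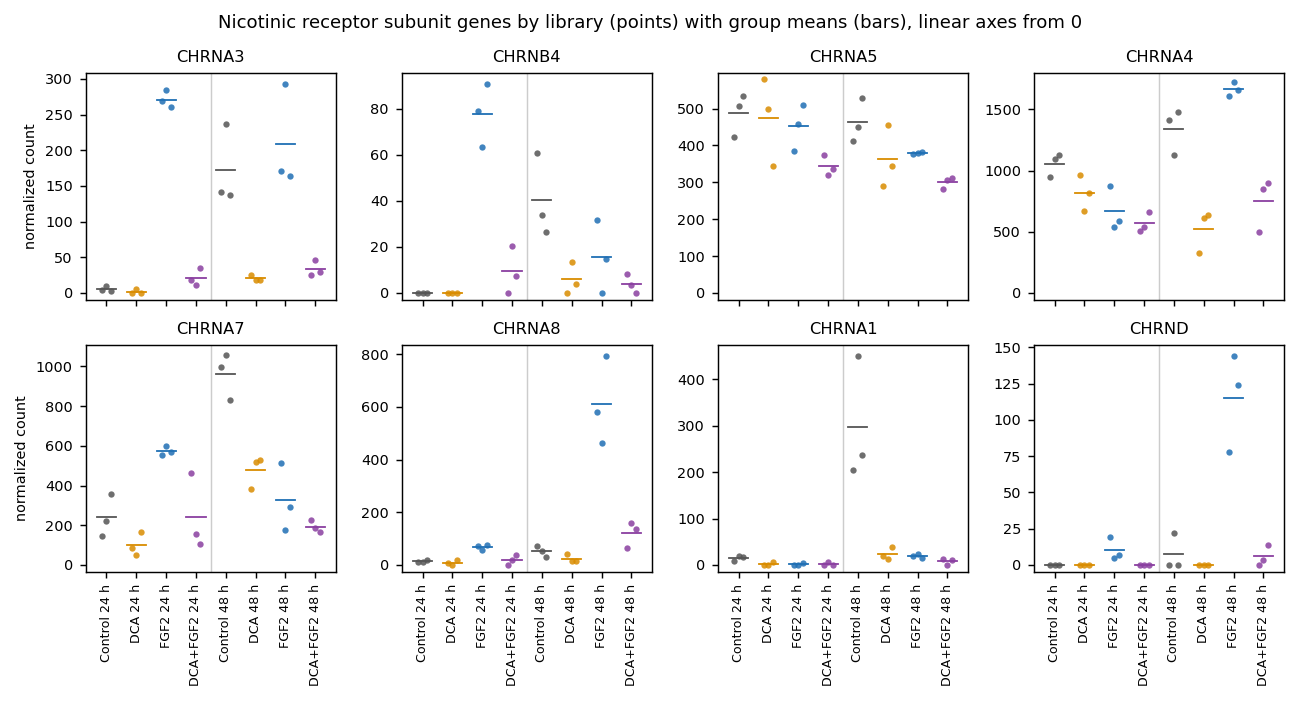
Points are libraries and bars are means of 3, in normalized counts on linear axes, for 8 nicotinic receptor genes in the 8 groups. CHRNA3 and CHRNB4 are high with FGF2 at 24 h and near 0 in the 24 h controls, CHRNA8 and CHRND are highest with FGF2 at 48 h, and CHRNA1 is high in the 48 h controls alone.

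Synaptotagmins with a role in fast release fell or did not pass with FGF2. SYT1 (ENSGALG00000041094), the calcium sensor of fast vesicle fusion in forebrain neurons, was at 709, 855 and 683 in the 24 h controls and 350, 433 and 560.3 with FGF2 (log2 fold change -0.76 ± 0.18, adjusted p = 0.0023). By 48 h the values were 988, 768 and 806 and 726, 504 and 620 (log2 fold change -0.48 ± 0.18, adjusted p = 0.028). SYT9, a sensor of the same kind, fell at 48 h from 736, 489 and 518 to 183, 135 and 248 (log2 fold change -1.64 ± 0.29, adjusted p = 6.3e-05). SYT2, the sensor of fast hindbrain synapses, did not pass with FGF2 (0.12 ± 0.36 at 48 h, adjusted p = 0.79) but fell when DCA was added to it, at 62.4, 44.9 and 34.6 with FGF2 and 19.6, 16.4 and 14 with both agents at 48 h (log2 fold change -1.42 ± 0.36, adjusted p = 0.0023). SYT7 (ENSGALG00000043139), a slow sensor of high calcium affinity that also serves lysosome fusion with the cell membrane, rose instead. It was at 336, 252 and 303 and 649.8, 575 and 679.8 at 24 h (log2 fold change 1.10 ± 0.14, adjusted p = 3.9e-06). It was at 379, 437 and 392 and 2134, 2045 and 1797 at 48 h (log2 fold change 2.30 ± 0.14, adjusted p = 2.1e-11), and the FGF2 effect was larger at 48 h by 1.20 ± 0.20 (adjusted p = 0.00013). SYT1 lost its call for FGF2 at 48 h without control 48 h replicate 1, FGF2 48 h replicate 2 or FGF2 48 h replicate 3. For SYT1 the adjusted p ran from 0.014 to 0.15 over the alternatives.

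DCA alone raised SYT7 as well, to 585, 548 and 591 at 24 h (log2 fold change 0.96 ± 0.14, adjusted p = 8.2e-05) and 966, 728 and 1141 at 48 h (log2 fold change 1.21 ± 0.14, adjusted p = 2.1e-06). With both agents it was at 854, 949.5 and 751 at 24 h, above every library of either agent alone, and at 1296, 1013 and 1191 at 48 h, below every FGF2 library (log2 fold change -0.78 ± 0.14, adjusted p = 0.0001). The interaction at 48 h was -1.98 ± 0.20 (adjusted p = 5e-07), against -0.54 ± 0.20 at 24 h (adjusted p = 0.16). SYT6 (ENSGALG00000001968) rose from 31.3, 108 and 43 to 772, 954 and 841 with FGF2 at 48 h (log2 fold change 3.99 ± 0.74, adjusted p = 9.6e-05) and was at 199, 159 and 266 with both agents (log2 fold change -2.06 ± 0.74, adjusted p = 0.024 against FGF2). Its relative SYT10 had 0, 0 and 9.21 in the 48 h controls and 42.7, 113 and 96.7 with FGF2 (log2 fold change 5.18 ± 1.01, adjusted p = 0.00016), and was above 0 in 1 of the 3 control libraries. At 24 h SYT10 was at 0, 0 and 3.14 in controls, 16, 22.4 and 15.2 with FGF2, 9.76, 12.3 and 13.2 with DCA and 13.8, 0 and 0 with both agents. The difference of DCA from control was called for it (log2 fold change 2.98 ± 1.01, adjusted p = 0.041). Its 24 h interaction was -5.90 ± 1.43 (adjusted p = 0.026). SYT6 lost its call for DCA added to FGF2 at 48 h without FGF2 48 h replicate 2, FGF2 48 h replicate 3, DCA+FGF2 48 h replicate 1 or DCA+FGF2 48 h replicate 2, and under a pseudocount of 0.5. For SYT6 the adjusted p ran from 2.5e-05 to 0.071 over the alternatives. SYT10 lost its call for DCA at 24 h without control 24 h replicate 1, control 24 h replicate 2, DCA 24 h replicate 1, DCA 24 h replicate 2, DCA 24 h replicate 3, FGF2 48 h replicate 2 or FGF2 48 h replicate 3, and under a pseudocount of 8, edgeR or DESeq2. For SYT10 the adjusted p ran from 0.018 to 0.13 over the alternatives. SYT10 lost its call for the interaction at 24 h without control 24 h replicate 1, control 24 h replicate 2, DCA 24 h replicate 2, DCA 24 h replicate 3, FGF2 24 h replicate 1, FGF2 24 h replicate 2 or DCA+FGF2 24 h replicate 2, and under edgeR, DESeq2 or a fit of only the groups compared. For SYT10 the adjusted p ran from 0.0039 to 0.12 over the alternatives.

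SYT4 and SYT11 form a pair that binds calcium poorly and works in vesicle traffic. SYT11 (ENSGALG00000014646) had between 8853 and 12554 normalized counts in every library. Its changes were small, as from 9011 ± 180.2 (SD, n = 3) in the 24 h controls to 10270.4 ± 231 with FGF2 (log2 fold change 0.19 ± 0.05, adjusted p = 0.0028). SYT4 (ENSGALG00000042626) varied widely. At 24 h it was at 796, 820.1 and 1105 in controls, 367, 401 and 526 with DCA and 1429, 2318 and 1496 with DCA and FGF2. DCA thus lowered it without FGF2 (log2 fold change -1.07 ± 0.23, adjusted p = 0.0022) and raised it with FGF2 (log2 fold change 1.45 ± 0.23, adjusted p = 5.1e-05), and the interaction was 2.52 ± 0.32 (adjusted p = 0.0002). At 48 h FGF2 alone gave 259, 290.5 and 307 against 490.2, 489 and 562 in controls (log2 fold change -0.85 ± 0.23, adjusted p = 0.0035). Both agents gave 1159, 1060.1 and 1118 (log2 fold change 1.96 ± 0.23, adjusted p = 3.2e-07 against FGF2), with an interaction of 1.46 ± 0.32 (adjusted p = 0.0018). SYT12 and SYT17 were raised when DCA was added to FGF2. SYT12 went from 776, 993 and 836 to 2812, 2628 and 2319.8 at 48 h (log2 fold change 1.58 ± 0.20, adjusted p = 8.9e-07) and SYT17 from 158, 169 and 153 to 538, 450.5 and 389 (log2 fold change 1.50 ± 0.23, adjusted p = 9.9e-06). Of the other tested synaptotagmins, SYT8 and SYT16 passed when DCA was added to FGF2 at 48 h (log2 fold change 0.84 ± 0.32, adjusted p = 0.031 and log2 fold change 0.94 ± 0.26, adjusted p = 0.0048), and SYT14 passed with FGF2 at 24 h (log2 fold change -2.90 ± 0.80, adjusted p = 0.0083). SYT8 also fell with FGF2 at 24 h, from 104, 81.9 and 72.3 to 30.9, 36.5 and 65.3 (adjusted p = 0.021). At 48 h SYT8 was at 55.9, 46.8 and 41.8 with FGF2 and 99.2, 78.4 and 83.1 with both agents. SYT8 lost its call for DCA added to FGF2 at 48 h without FGF2 48 h replicate 2, FGF2 48 h replicate 3, DCA+FGF2 48 h replicate 1 or DCA+FGF2 48 h replicate 3, and under no filter. For SYT8 the adjusted p ran from 0.022 to 0.1 over the alternatives. SYT14 lost its call for FGF2 at 24 h without FGF2 24 h replicate 2, and under edgeR, DESeq2 or a fit of only the groups compared. For SYT14 the adjusted p ran from 2.5e-05 to 0.15 over the alternatives. SYT8 lost its call for FGF2 at 24 h without control 24 h replicate 1, FGF2 24 h replicate 1 or FGF2 24 h replicate 2, and under a fit of only the groups compared. For SYT8 the adjusted p ran from 0.0052 to 0.11 over the alternatives.

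**Figure D5:**
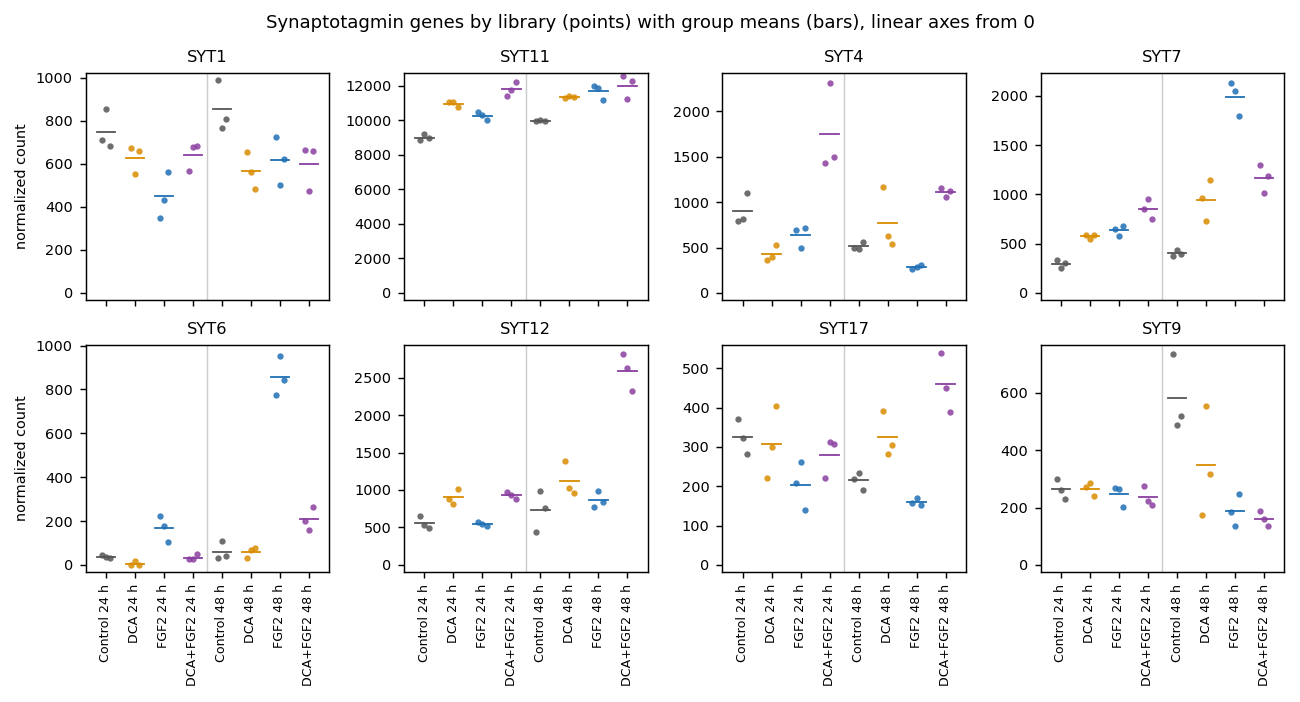
Points are libraries and bars are means of 3, in normalized counts on linear axes, for 8 synaptotagmin genes in the 8 groups. SYT7 and SYT6 are highest with FGF2 at 48 h, SYT4 is highest with DCA and FGF2 at 24 h, and SYT12 and SYT17 with DCA and FGF2 at 48 h.

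Receptor subunit genes often lie side by side, and all 64 genes were matched by symbol to the RefSeq gene table of the assembly GRCg7b to find neighbours. CHRNB4, CHRNA3 and CHRNA5 are consecutive protein-coding genes there. CHRNB4 and CHRNA3 were raised together by 24 h of FGF2 while CHRNA5 had -0.11 ± 0.18 (adjusted p = 0.69), and the annotated ends of CHRNA3 and CHRNA5 overlap. GABRA6 lies inside the annotated span of GABRB2, and their log2 fold changes with FGF2 at 24 h were -2.28 ± 0.43 and -1.02 ± 0.23. GLRB and GRIA2 are neighbours too, with -1.66 ± 0.25 and -1.35 ± 0.26 at 48 h of FGF2. CHRNA6 and CHRNB3 are adjacent as well. CHRNB3 was at 25.3, 8.21 and 14.3 in the 48 h controls, 124, 20.3 and 57.1 with DCA, 71.2, 41.1 and 58.8 with FGF2 and 447, 261 and 212 with both, whereas CHRNA6 was at 31.3, 50.9 and 8.19 in controls and 84.7, 32.8 and 41 with both. At 48 h of DCA added to FGF2 their log2 fold changes were 2.37 ± 1.09 (adjusted p = 0.074) and 1.20 ± 0.60 (adjusted p = 0.1). CHRNB3 was called higher with FGF2 at 24 h, where the controls were at 0 and the FGF2 mean was 15.1. That is at least 4.79-fold with a floor of 3 reads per library.

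Genes that work beside these receptors were read from 3 lists drawn up from general knowledge with earlier results of these data known. Of the vesicle release machinery, 2 of 20 tested rows rose and 7 fell with FGF2 at 48 h, with a median log2 fold change of -0.21 beside -0.02 over all genes. That is 45% of the list, beside 54.6% of all genes called in this comparison. SNAP25, the membrane SNARE that synaptotagmins act on, fell (log2 fold change -1.34 ± 0.14, adjusted p = 4.1e-08), as did the vesicle protein gene SYNGR1 (log2 fold change -0.65 ± 0.12, adjusted p = 8.6e-05) and the calcium sensor gene DOC2B (log2 fold change -1.27 ± 0.24, adjusted p = 0.00011). With DCA added to FGF2, 8 rows rose and 6 fell at 48 h (70%, beside 52.8% of all genes), 2 of the risers being rows of 1 gene. Complexin CPLX1, a clamp on fusion, rose by 3.97 ± 0.36 (adjusted p = 7.3e-09). Of 12 genes for transmitter synthesis and transport, 6 rose and 2 fell with FGF2 at 48 h (median 1.15), 66.7% of the list. The glycine transporter SLC6A9 (log2 fold change 1.12 ± 0.11, adjusted p = 3.9e-08) and ABAT, which breaks down GABA (log2 fold change 1.18 ± 0.13, adjusted p = 1.3e-07), rose, while GAD2, which makes GABA (log2 fold change -1.72 ± 0.18, adjusted p = 5.1e-08), and GLUL, glutamine synthetase (log2 fold change -1.39 ± 0.18, adjusted p = 9.6e-07), fell. GAD2 was lower still with DCA and FGF2 (log2 fold change -3.49 ± 0.18, adjusted p = 2.7e-12 against FGF2). Of 33 genes for receptor scaffolds and partners, 11 rose and 7 fell with FGF2 against control at 48 h (median 0.29), 54.5% of the list beside the same background. The AMPA receptor partners CACNG4 (log2 fold change 3.99 ± 0.43, adjusted p = 8.7e-08), CACNG5 (log2 fold change 2.52 ± 0.19, adjusted p = 4.7e-10) and GRIP1 (log2 fold change 1.54 ± 0.14, adjusted p = 3.9e-09) and the adhesion protein NLGN1 (log2 fold change 2.36 ± 0.19, adjusted p = 9.4e-10) were among those that rose.

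Young neuron markers rose with FGF2, 9 of 10 tested at 48 h with 0 lower, beside 26.9% higher and 27.7% lower of all genes tested. Their summed level was 5758 to 7576 in the 48 h controls, 22300 to 27950 with FGF2, 5984 to 9858 with DCA and 18170 to 22720 with both agents, and POU4F1 was above 0 in 1 library, of FGF2 at 48 h. The sums hide opposite changes. With both agents against FGF2 at 48 h, ATOH7, DCX, ELAVL4, INA, ISL1 and NEFM were called lower. GAP43 and TUBB3 were called higher there, beside 27.4% lower and 25.4% higher of all genes tested. With DCA alone against control at 48 h, ATOH7 and NEFM were called lower and GAP43 and TUBB3 higher. Of all genes tested, 17.1% were lower and 16.9% higher in that comparison. Periocular mesenchyme markers fell in 11 of 11 cases with FGF2 at 48 h, beside 27.7% of all genes tested. Their sums were 110800 to 124300 in the 48 h controls and 25680 to 34180 with FGF2. They were 76560 to 92160 with DCA alone and 45440 to 51260 with both agents. Endothelial markers summed to 29340 to 44640 in the 48 h controls and 6779 to 7725 with FGF2, and blood and macrophage markers to 41960 to 63990 and 10300 to 16040. With DCA alone at 48 h these sums were 11960 to 26760 and 25300 to 34430, again below every control. The part of these cell types in the receptor and synaptotagmin values was not tested.

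The 8 genes below the filter were CHRNA9, CHRNA10, CHRNG, GABRA5, GABRE, GABRQ, GLRA1 and SYT13. CHRNA10 was at 0 in 21 libraries and at 30.7, 43 and 10.4 with FGF2 at 48 h, the 3 that held any reads. SYT13 was at 25.1, 19.4 and 11.8 and 33.1, 45.6 and 18.4 with DCA and FGF2 and at most 12.1 in any other library. The remaining tested genes that passed in no comparison with control or FGF2 were CHRNA2, CHRNA5, CHRNA6, GABRA4, GABRD, GABRP, GRIK4 and GRIN2A, with group means from 2.85 to 531 normalized counts.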

How the data were processed

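RNA-seq of 24 libraries, 3 in each of 8 groups, was read from 1 deposited table of normalized read counts, a signal that the authors made by dividing reads per gene by 1 size factor per library. Tools in the submitters' processing notes were DESeq2 (version 1.34.0), StringTie (version 2.1.4), STAR (version 2.7.5b) and Trim Galore (version 0.6.4), with the genome build GRCg6a. The strand setting was not given in those notes or labels, nor was the annotation release. Groups came from the labels. All values were whole multiples of 1 read within 0.001 (100% of values), so reads were recovered for count tests and depths.

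Genes whose mean over the 24 libraries reached 10 were tested with limma 3.58.1 in R 4.3.3 on log2 of the normalized count plus 1, with 8 group means, a shared spread (16 residual degrees of freedom), 2-sided p-values and Benjamini-Hochberg adjustment over 15001 genes. The model was also run on simulated counts with changes planted in few genes of 1 group, unlike these data, so no support is drawn from that run. Alternatives were edgeR 4.0.16 (quasi-likelihood) and DESeq2 1.42.0 on recovered reads, pseudocounts of 0.5 and 8, no filter or a mean of 50, TMM factors, a replicate block, only the groups compared, and each library left out. The members and lists were chosen with earlier results of these data known. Members were chosen for naming when called with FGF2 at an absolute log2 fold change of at least 1, without overlap and with a group mean of at least 100.0. The 6 with the smallest adjusted p in each other comparison and a fixed set were chosen too. Library values of a named member were given for some of its comparisons, not for every one that chose it. SYT14 and SYT16 and the low genes were named beside these. Some members are counted but not reported here by name. Pathway genes were named by smallest adjusted p, and the 2 rows of SYP were counted but not named. Replicates are pools of 3 explants, and p-values measure the spread between pools.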

Additional observations from a re-analysis of the deposited data

Results flagged for a closer look

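The response to DCA differed with and without FGF2 for 6 members at 24 h and 15 at 48 h, by limma's interaction term on the log2 scale with Benjamini-Hochberg adjustment, and genes among the 6 with the smallest adjusted p at each time are given. At 24 h the interaction was -5.48 ± 1.30 (SE) for GRIK2 (adjusted p = 0.024), 1.86 ± 0.38 for GRIN2C (adjusted p = 0.0092), -5.90 ± 1.43 for SYT10 (adjusted p = 0.026) and 2.52 ± 0.32 for SYT4 (adjusted p = 0.0002). At 48 h it was 2.71 ± 0.67 for GRIA1 (adjusted p = 0.0042), 1.70 ± 0.23 for GRIN3A (adjusted p = 9.9e-06), 1.33 ± 0.35 for GRIN3B (adjusted p = 0.0058), 1.46 ± 0.32 for SYT4 (adjusted p = 0.0018) and -1.98 ± 0.20 for SYT7 (adjusted p = 5e-07). The 24 h calls of GRIK2 and SYT10, genes of few reads, were each lost on leaving out any 1 of several libraries.

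The FGF2 effect differed between 48 h and 24 h for 12 members, of which the 6 with the smallest adjusted p are given. The difference was -1.33 ± 0.18 for GABRG1 (adjusted p = 1.1e-05), -5.16 ± 0.82 for CHRNA3 (adjusted p = 6.7e-05), -3.02 ± 0.64 for CHRNA7 (adjusted p = 0.0012), -8.56 ± 1.77 for CHRNB4 (adjusted p = 0.00091), 2.25 ± 0.38 for GRIN2C (adjusted p = 0.00013) and 1.20 ± 0.20 for SYT7 (adjusted p = 0.00013). The CHRNB4 value is a fitted one that rests on 24 h controls at 0 in all libraries, so it gives no size.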

How the results depend on the processing

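Of 192 calls of a gene in a comparison, none reversed under the alternatives run. The edgeR and unfiltered runs each kept 172, DESeq2 177 and the fit of only the groups compared 154. A filter at a mean of 50 kept 152, and the other calls were of genes too low to be tested there. The fit of only the groups compared called 7 genes in place of 13 for DCA against control at 24 h, and the cause was not tested. Leaving out 1 library gave 22 to 31 called genes for FGF2 at 24 h, 24 to 30 at 48 h, 8 to 15 for DCA at 24 h, 12 to 19 at 48 h, 20 to 32 for DCA added to FGF2 at 24 h, 19 to 26 at 48 h, 3 to 7 for the interaction at 24 h, 11 to 16 at 48 h, 10 to 14 for the FGF2 effect between times and 13 to 20 for control at 48 h against 24 h. The DCA count at 24 h was 8 without control 24 h replicate 2 and 8 without DCA 24 h replicate 1. The count for DCA added to FGF2 at 24 h was 21 without FGF2 24 h replicate 1 and 20 without DCA+FGF2 24 h replicate 2, and the interaction count was 3 without either of these. Same-numbered libraries did not deviate together (r from -0.09 to 0.10), so the replicate numbers were not taken as a pairing, and the replicate block gave 30, 25, 13, 15, 32, 22, 7, 15, 12 and 19 calls in the same order of comparisons. Depth limits genes of a few reads, for which 1 library can decide a fold change.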
